A study of Homo sapiens with 15 samples.

Results

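The measurements below concern 10 genes used as markers of the undifferentiated state of human pluripotent stem cells, namely POU5F1, NANOG, DPPA2, DPPA4, UTF1, ZFP42, LIN28A, LIN28B, L1TD1 and PRDM14. They were taken by gene symbol from a table of 60605 genes, and all 10 were found in it, 1 row each. They were chosen by name, with earlier results of these data known. RNA was collected from H1, an established human embryonic stem cell (hESC) line of wild-type genotype, during mesendoderm and cardiac differentiation started on day 0 with CHIR99021, an inhibitor of GSK3 that switches on canonical WNT signalling, followed by insulin on day 1. The cultures of days 0, 1 and 2 gave 1 library each, and from day 2 the culture was split into 3 arms sampled on days 3, 5, 7 and 10. The NP-ctrl arm was neither passaged nor given a further inducer, the NP-IWP2 arm was not passaged and received IWP2, an inhibitor of WNT ligand secretion, after day 2, and the passaged arm was dissociated with EDTA on day 2 and replated with a ROCK inhibitor. All 3 arms therefore share the CHIR99021 and insulin steps and the same 3 early libraries. There were 15 libraries in all, 1 for each time point and arm, from 1 cell line and with no repeat differentiation, so a difference between single libraries below has an interval for counting error only.

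POU5F1 (OCT4) and NANOG are transcription factors of the network that keeps hESCs undifferentiated, and PRDM14 is a DNA-binding regulator that helps to hold POU5F1 on. DPPA2 and DPPA4 are paired SAP-domain chromatin proteins, UTF1 is a chromatin-associated factor, and ZFP42 (REX1) is a zinc finger protein long used as a stem cell marker. LIN28A and LIN28B are RNA-binding proteins that block maturation of the let-7 microRNAs, and L1TD1 is an RNA-binding protein derived from a LINE-1 open reading frame that is found with LIN28A in hESCs.

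The day 0 library carried the label of undifferentiated cells well. Of 21206 genes with at least 1 FPKM (fragments per kilobase of exon scaled to library size) in at least 1 library, POU5F1 ranked 33 by day 0 level, LIN28A ranked 52 and the lowest member, DPPA2, ranked 5007. All 10 members passed this filter. A list of 32 other genes of primed hESCs was also above it in full, with SOX2 at 97.13 FPKM on day 0, whereas the summed FPKM of 8 cardiomyocyte markers was 2.46 and that of 10 endoderm and liver markers was 1.22. Counted reads per library ran from 13254723 to 20250115. Reads from mitochondrial genes took 1.53% of the passaged day 3 library and 10.3% of the passaged day 10 library, against 3.71% to 6.14% elsewhere.

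The members lie at separate places in the genome except for DPPA2 (chr3:109293788-109316517, minus strand) and DPPA4 (chr3:109326141-109337572, minus strand), which are neighbours. By GENCODE positions on GRCh38, POU5F1 spans chr6:31164337-31180731 on the minus strand, NANOG chr12:7787794-7799146 on the plus strand, UTF1 chr10:133230217-133231558 on the plus strand and ZFP42 chr4:187995771-188005046 on the plus strand. LIN28A spans chr1:26410817-26429728, LIN28B chr6:104936616-105083332 and L1TD1 chr1:62194849-62212328, all on the plus strand. Reads were counted over the exons of each gene. POU5F1 overlaps TCF19 and PSORS1C3, LIN28B overlaps LIN28B-AS1 and L1TD1 overlaps a pseudogene, and whether counting used the strand is not given in the sources used here.

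Promoter sequences from RefSeq (GRCh38.p14, 250 bases before the annotated start, matched for 7 of 10 members) are shown for 3 members. NANOG and UTF1 were both near or below 10% of day 0 by day 2, and LIN28B stayed close to its day 0 level through day 5. Capitals mark matches on either strand to a POU factor element (TTTGCAT), a SOX factor element (ACAATG) or a GC box (GGGCGG, which reads CCGCCC on the other strand), and GC boxes in a run may share a base.
NANOG, chr12:7789152-7789401, plus strand: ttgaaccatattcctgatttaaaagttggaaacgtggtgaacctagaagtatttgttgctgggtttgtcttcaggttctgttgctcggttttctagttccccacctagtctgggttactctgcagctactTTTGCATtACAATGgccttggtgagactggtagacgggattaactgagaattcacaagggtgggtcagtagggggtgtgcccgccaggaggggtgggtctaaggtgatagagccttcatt
UTF1, chr10:133229967-133230216, plus strand: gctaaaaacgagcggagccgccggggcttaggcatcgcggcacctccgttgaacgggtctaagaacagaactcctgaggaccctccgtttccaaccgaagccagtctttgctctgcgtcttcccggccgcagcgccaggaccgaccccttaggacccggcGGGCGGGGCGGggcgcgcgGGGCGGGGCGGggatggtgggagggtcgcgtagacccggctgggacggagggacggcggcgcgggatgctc
LIN28B, chr6:104940715-104940964, plus strand: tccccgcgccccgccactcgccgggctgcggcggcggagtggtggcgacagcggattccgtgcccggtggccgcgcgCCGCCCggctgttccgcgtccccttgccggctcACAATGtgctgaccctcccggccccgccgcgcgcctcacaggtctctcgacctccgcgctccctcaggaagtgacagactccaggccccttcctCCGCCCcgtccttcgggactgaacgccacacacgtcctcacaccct
The NANOG window held 1 POU and 1 SOX match with 1 base between them, the POU match starting 120 bases before the RefSeq start, and it was poor in CpG (4 CpG, 47.6% GC). Of 35116 RefSeq promoters of the same length, 3.94% held the POU letters, 9.29% the SOX letters and 0.0114% (4 promoters) both within 1 base, a count made after the NANOG sequence had been seen. The UTF1 window held 4 GC boxes and 32 CpG and the LIN28B window 2 GC boxes, 1 SOX match and 33 CpG, against a median of 11 CpG over all promoters. GC boxes were present in 42.64% of promoters and 4 or more of them in 7.63%. RefSeq gives LIN28B a second window (chr6:104956857-104957106, plus strand), which held 6 CpG at 38.4% GC and none of the 3 motifs, so LIN28B has 1 window above and 1 below the median. Which of them was in use was not measured.

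LIN28A and LIN28B are also the members with let-7 seed matches among the 9 searched, which do not include PRDM14. All 9 mature let-7 family miRNAs in RefSeq share the seed GAGGUAG at bases 2 to 8, shown in capitals for 2 of them. The hairpin of MIRLET7G (chr3:52268278-52268361, minus strand) is shown because its loop carries the GGAG letters, in capitals, that LIN28 proteins bind in let-7 precursors. The loops of 9 of 12 let-7 hairpins held these letters.
hsa-let-7a-5p: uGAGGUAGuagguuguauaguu
hsa-let-7g-5p: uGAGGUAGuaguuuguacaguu
MIRLET7G hairpin: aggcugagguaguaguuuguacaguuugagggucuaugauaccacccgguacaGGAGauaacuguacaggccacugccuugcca
The complement of the seed, CTACCTC, occurred in the 3′ UTR of 2 of the 9 members searched (GENCODE release 44 canonical transcripts), at 1 place in LIN28A and at 4 places in LIN28B. Of 19527 protein-coding genes, 9.77% held at least 1.
LIN28A, chr1:26427349-26427370: cacagcctattgaaCTACCTCa
LIN28B, chr6:105078813-105078834: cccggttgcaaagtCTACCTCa
LIN28B, chr6:105081240-105081261: actgatgatagtaaCTACCTCt
LIN28B, chr6:105081422-105081443: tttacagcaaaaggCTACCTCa
LIN28B, chr6:105082861-105082882: aatgatggtgttgaCTACCTCt
A match of letters is a description of the sequence. The let-7 miRNAs themselves were not measured in these libraries.

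Loss from day 0 began within 1 day of CHIR99021, and it was uneven between members. On day 1, 5 of 10 members were at least 2-fold below day 0 on the log2(FPKM + 1) scale (UTF1, PRDM14, L1TD1, DPPA2 and DPPA4), where 3.48% of all 21206 genes were. By day 2 the count was 8 of 10, with NANOG, ZFP42 and POU5F1 added, against 5.17% of all genes. LIN28A and LIN28B were the remaining members on day 2. In bulk RNA, fewer cells that express a gene and less RNA of it per cell cannot be told apart.

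PRDM14 and UTF1 showed the steepest first day. PRDM14 stood at 43.87 FPKM on day 0, 4.76 on day 1 and 6.97 on day 2, so that its day 1 level was 10.9% of day 0 (exact 95% interval 9.36% to 12.5%) and its day 2 level was higher than that of day 1 by a ratio of 1.46 (1.23 to 1.75). UTF1 went from 246.42 FPKM to 30.87 and 6.92, or 12.5% (11.6% to 13.6%) and 2.81% (2.39% to 3.27%) of day 0. UTF1 was thus the member with the lowest remaining share on day 2. Counts behind these values were 5077, 691 and 170 for UTF1 and 1763, 208 and 334 for PRDM14.

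POU5F1 and NANOG separated over the same days. NANOG had 37.21 FPKM on day 0, 18.41 on day 1 and 3.92 on day 2, which left 49.5% (46.7% to 52.4%) and 10.5% (9.51% to 11.7%) of day 0. POU5F1 had 625.29, 501.29 and 240.97 FPKM, which left 80.2% (78.9% to 81.5%) and 38.5% (37.8% to 39.3%). On both days the NANOG share lay below the POU5F1 share with intervals that did not overlap. POU5F1 remained among the abundant transcripts on day 2 at a time when NANOG had fewer than 4 FPKM.

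DPPA4 and its lower partner DPPA2 were reduced in parallel through day 2. DPPA4 measured 209.44, 102.74 and 64.7 FPKM on days 0, 1 and 2, and DPPA2 measured 8.9, 3.45 and 2.61 FPKM. Their shares on day 2 were 30.9% (30.0% to 31.8%) and 29.3% (22.1% to 38.4%), which did not differ beyond counting error, although DPPA2 rested on 73 counts. ZFP42 (82.16, 47.0 and 28.69 FPKM) kept 34.9% (32.9% to 37.1%) on day 2. L1TD1 (227.48, 98.29 and 34.75 FPKM) kept 15.3% (14.7% to 15.9%), less than ZFP42 or DPPA4.

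The LIN28 paralogues were held longest. LIN28A measured 457.58 FPKM on day 0, 364.6 on day 1 and 320.64 on day 2, a share of 70.1% (68.9% to 71.2%) on day 2. LIN28B measured 31.1, 31.63 and 34.12 FPKM, with a day 2 share of 110% (105% to 115%) by FPKM and 102% with TMM-scaled libraries. LIN28B had not declined on days 1 and 2. LIN28A was at 79.7% (78.4% to 81.0%) on day 1, level with POU5F1, and on day 2 it had declined by less than any member other than LIN28B.

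**Figure D1:**
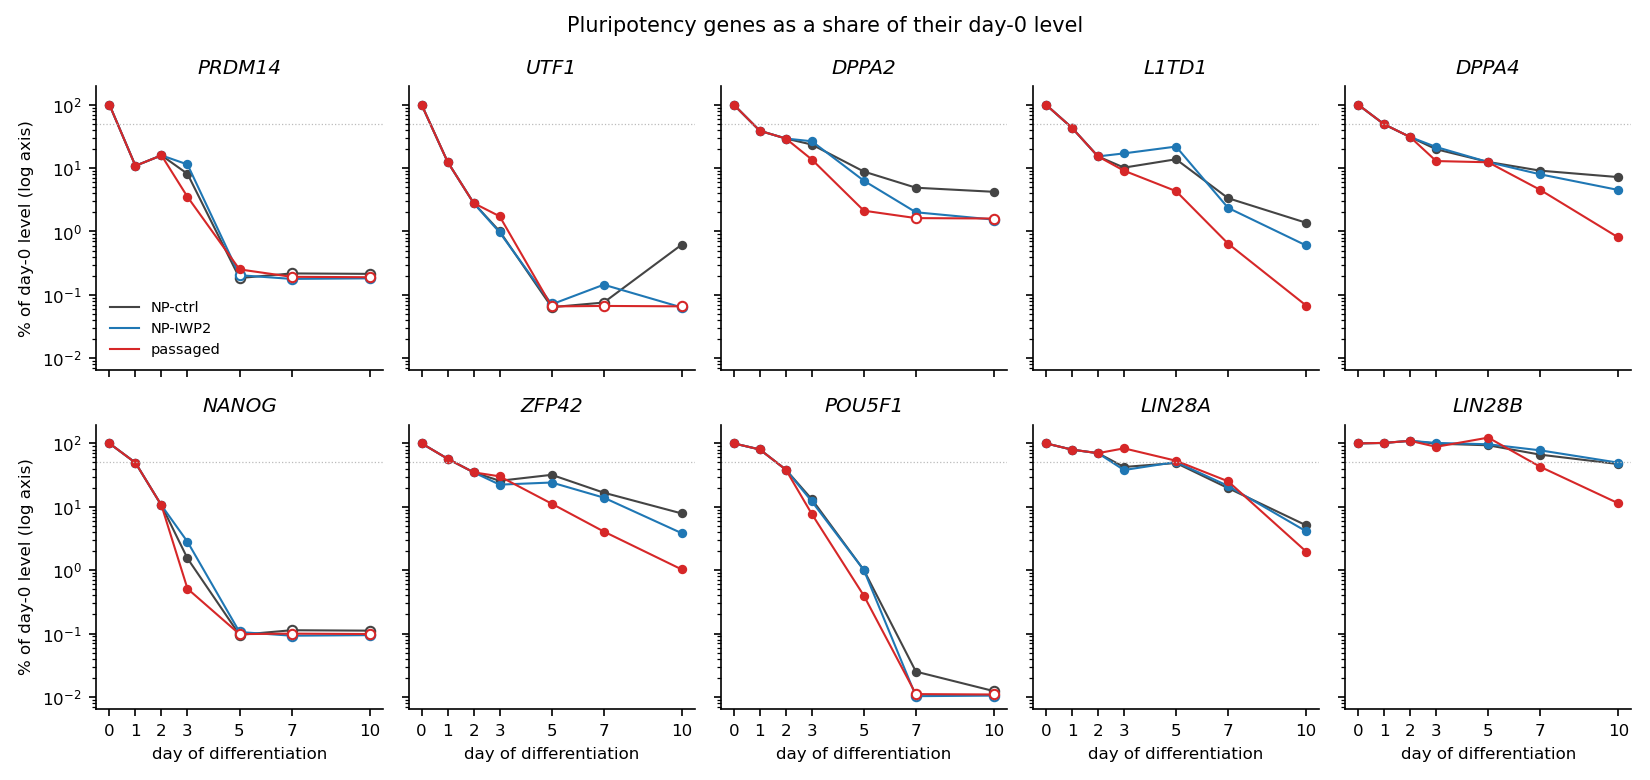
Level of each of the 10 members as percent of its day 0 FPKM (log axis) against day of differentiation, 1 point for each library, with days 0 to 2 shared and then 1 line each for the NP-ctrl, NP-IWP2 and passaged libraries. Open circles are libraries at or under 3 counts drawn at 3 counts, and the dotted line is 50%. On day 1, 6 members are at or below 50%, with PRDM14 and UTF1 the lowest, and LIN28B crosses 50% only after day 5. The passaged line lies below the others on day 10 for DPPA4, ZFP42, LIN28A, LIN28B and L1TD1.

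Straight lines between days on the log2 FPKM scale placed the time to 50% of day 0 at 0.312 days for PRDM14, 0.334 days for UTF1, 0.731 days for DPPA2 (counting bounds 0.574 to 0.999), 0.826 days for L1TD1 (0.799 to 0.855), 0.973 days for DPPA4 (0.940 to 1.01) and 0.985 days for NANOG (0.911 to 1.03). ZFP42 followed at 1.27 days and POU5F1 at 1.65 days. L1TD1 preceded DPPA4 and NANOG with bounds that did not overlap theirs. DPPA4 and NANOG overlapped each other, PRDM14 overlapped UTF1, and DPPA2 overlapped L1TD1, DPPA4 and NANOG, so those pairs have no firm order. LIN28A first reached 50% at 2.67 days (NP-ctrl), 2.55 days (IWP2 arm) and 5.17 days (passaged arm). The IWP2 arm went from 38.0% on day 3 back to 50.8% (49.8% to 51.9%) on day 5. NP-ctrl was then at 49.0% and passaged at 53.2%, so the arms were close on day 5. LIN28B reached 50% at 9.49, 9.95 and 6.70 days in the same order of arms. The LIN28B times outside the passaged arm rest on day 10 levels just under 50%, whose upper counting bounds were above it, and by TPM LIN28B was at 57.0% and 57.4% there and did not reach 50%. A single library stands behind each point, so these times describe 1 differentiation.

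The order at 10% of day 0 was different from that at 50%. UTF1 passed 10% at 1.15 days, NANOG at 2.02 to 2.04 days and PRDM14, which had paused between days 1 and 2, at 2.31 to 3.07 days depending on the arm. On day 1 PRDM14 stood at 10.9% (9.36% to 12.5%) of day 0, so its lower counting bound was 0.972 days in each arm. Its order against UTF1 and NANOG is therefore not firm. POU5F1 passed 10% at 2.84 to 3.21 days, ahead of DPPA2 (3.34 to 4.74), DPPA4 (5.42 to 6.41), ZFP42 (5.22 to 9.03) and LIN28A (8.09 to 8.50). L1TD1 passed it at 5.70 days with IWP2, later than POU5F1, and at 2.82 days in passaged, level with POU5F1 (2.84). In NP-ctrl L1TD1 stood at 10.2% (9.63% to 10.7%) on day 3, so its time of 5.45 days had a lower counting bound of 2.91 days and was 2.82 days with TMM-scaled libraries. POU5F1, the eighth member at 50%, was thus the fourth at 10% in NP-ctrl, and DPPA2, DPPA4 and ZFP42 came after it. LIN28B did not pass 10% in any arm by day 10. Rescaling to TPM or to TMM-scaled libraries left each rank at 50% in NP-ctrl as it was, with LIN28B last also where it did not reach 50%.

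**Figure D2:**
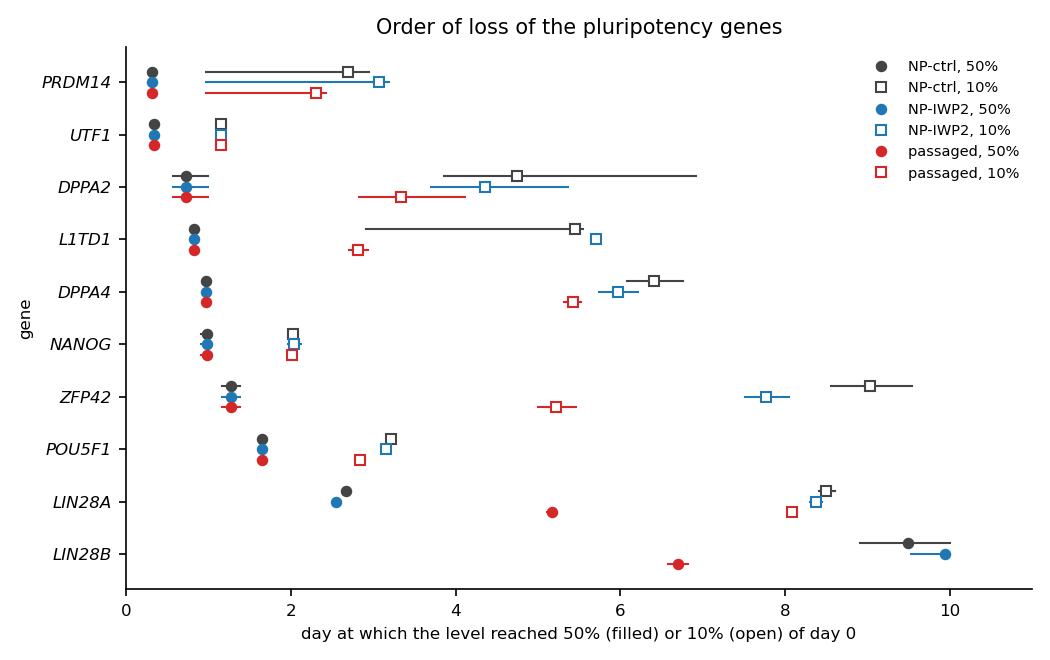
Day at which each member first passed 50% and 10% of its day 0 FPKM (horizontal axis, days, by straight lines between sampled days on log2 FPKM), for the NP-ctrl, NP-IWP2 and passaged libraries. Filled points are 50%, open squares 10%, and bars the bounds from counting error, which are wide where a level paused near 10% (PRDM14, and L1TD1 in NP-ctrl) and end at day 10 where the upper bound was not reached (LIN28B in NP-ctrl and NP-IWP2). PRDM14 and UTF1 are the earliest at 50%, and POU5F1 takes a late place at 50% and an early one at 10%.

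From day 3 the decline of POU5F1 went down to the limit of counting. POU5F1 had 82.11, 75.97 and 48.03 FPKM on day 3 in the NP-ctrl, NP-IWP2 and passaged libraries, and 6.26, 6.27 and 2.47 FPKM on day 5. On day 7 it had 6, 0 and 1 counts and on day 10 it had 1, 1 and 0 counts, which put the NP-IWP2 day 7 and passaged day 10 libraries, at 0 counts, at least 9722-fold and at least 9150-fold below day 0 (with 3 counts per library as the floor). NANOG had 0.57, 1.04 and 0.19 FPKM on day 3 and no more than 2 counts in any later library. Neither gene exceeded 2 counts in any arm on day 10, so a remaining signal below that was not detectable at this depth.

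PRDM14 and UTF1 were near zero from day 5, with 1 exception. PRDM14 had 3.56, 5.01 and 1.54 FPKM on day 3, at most 4 counts on day 5 and 0 counts in all 3 arms on day 10. UTF1 had 2.48, 2.38 and 4.27 FPKM on day 3 and 3, 0 and 2 counts on day 5. On day 10 it had 25 counts (1.53 FPKM) in NP-ctrl, with 3 left under IWP2 and 0 after passaging. The NP-ctrl day 10 value was above that of day 7 in the same arm (3 counts) by a ratio of 8.21 (2.50 to 42.5), and it was the sole late library in which UTF1 exceeded 7 counts.

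DPPA4 and ZFP42 kept measurable tails in all arms, and DPPA2 in NP-ctrl. DPPA4 had 41.54, 45.06 and 27.04 FPKM on day 3 in the NP-ctrl, NP-IWP2 and passaged libraries, and on day 5 the arms were level at 26.16, 26.01 and 25.86. It then had 19.07, 16.69 and 9.48 FPKM on day 7 and 15.09, 9.45 and 1.68 on day 10. DPPA4 thus kept 7.21% of its day 0 level in NP-ctrl and 0.804% in passaged at the end. DPPA2, with 23 to 47 counts on day 3, had 8, 4 and 2 counts on day 7 and 7, 3 and 0 counts on day 10, so it was at or under the floor of 3 counts in 3 libraries. ZFP42 had 21.11, 18.36 and 24.8 FPKM on day 3, 26.23, 19.83 and 9.19 on day 5, 13.71, 11.45 and 3.35 on day 7, and 6.44, 3.14 and 0.84 by day 10. The passaged arm was the highest of the 3 for ZFP42 on day 3 and the lowest from day 5 on.

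L1TD1 did not decline evenly. It had 23.14, 38.82 and 20.7 FPKM on day 3 in the NP-ctrl, NP-IWP2 and passaged libraries, and 31.35, 49.7 and 9.85 on day 5. The change from day 3 to day 5 was a ratio of 1.36 (1.26 to 1.45) for the control, 1.28 (1.21 to 1.36) for IWP2 and, after passaging, 0.476 (0.429 to 0.527). L1TD1 was then at 7.62, 5.36 and 1.46 FPKM on day 7 and at 3.12, 1.37 and 0.15 FPKM on day 10. Its last passaged library held 9 counts.

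LIN28A was the member with the highest FPKM in every library from day 2 on. It had 194.27, 173.71 and 382.28 FPKM on day 3, so that passaged stood at 83.5% of day 0 (82.1% to 85.0%) and NP-ctrl at 42.5% (41.6% to 43.4%). By day 5 the arms were close, at 224.32, 232.63 and 243.46 FPKM, and they declined together to 90.1, 97.53 and 115.25 on day 7 and 23.32, 18.76 and 8.99 on day 10. From day 7 to day 10 the passaged arm kept 7.80% of its LIN28A, whereas NP-ctrl kept 25.9% and NP-IWP2 kept 19.2%. LIN28A was the member for which the passaged arm was the highest on days 3, 5 and 7 and the lowest on day 10.

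LIN28B stayed between 88.3% and 123% of day 0 by FPKM through day 5 and was the only member above 10% of day 0 on day 10. It had 30.82, 31.59 and 27.45 FPKM on day 3, 29.01, 30.12 and 38.34 on day 5, 20.64, 24.14 and 13.28 on day 7, and 14.67, 15.43 and 3.53 on day 10. On day 10 the NP-ctrl culture held 47.2% (44.1% to 50.5%), the NP-IWP2 culture 49.6% (46.6% to 52.8%) and the passaged culture 11.3% (10.1% to 12.7%). Whether LIN28B on days 3 and 5 lay a little above or below day 0 turned on the scaling in some libraries: passaged day 3 was 88.3% by FPKM, 75.4% with TMM-scaled libraries and 106% by TPM.

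On day 3, 9 of 10 members in either unpassaged arm and 8 in the passaged one were at least 2-fold below day 0, and the shares of all genes were 7.87%, 7.35% and 6.22%. On day 10 the counts were 10, 9 and 10, and the shares of all genes were 12.9%, 14.6% and 15.4%. LIN28B in NP-IWP2 was the member not counted on day 10. The median member on day 10 was 4.73 (NP-ctrl), 4.90 (NP-IWP2) and 5.51 (passaged) below day 0 in log2(FPKM + 1), with the low members limited by the pseudocount of 1.

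The rate of loss in the tail was tested with edgeR over the 12 libraries of days 3 to 10, with 1 slope common to the arms and the spread taken from the libraries around it. This spread is that of 1 series of cultures followed over time. The slopes of 9 of 10 members were below 0 at an adjusted p under 0.05, where 17.1% of all genes fell. POU5F1 had the steepest fitted slope, -2.19 log2 units per day (SE 0.133, adjusted p = 6.62e-06, edgeR), followed by PRDM14 at -1.96 (SE 0.168, adjusted p = 3.81e-05, edgeR) and NANOG at -1.23 (SE 0.220, adjusted p = 0.00162, edgeR). Without day 7 the first 2 changed places, with PRDM14 at -2.33 and POU5F1 at -1.78. L1TD1 (-0.75), LIN28A (-0.57), DPPA2 (-0.55), ZFP42 (-0.44) and DPPA4 (-0.34) formed a slower group with SEs from 0.0585 to 0.110. LIN28B had the shallowest slope, -0.24 per day (SE 0.0603, adjusted p = 0.0114, edgeR). UTF1, already close to 0 counts on day 5, had a slope of -0.44 (SE 0.211) that did not pass (adjusted p = 0.131, edgeR). Fitted slopes of PRDM14, NANOG, UTF1, POU5F1 and DPPA2 include libraries at 0 counts and are not bounds. On day 3 POU5F1 had 1896 to 3850 counts, and PRDM14, NANOG and UTF1 had 14 to 160. The floor thus limits what the order of these slopes shows. From day 3 to 5, POU5F1 changed least of these in NP-ctrl (-1.857 log2 units per day, PRDM14 -2.73, NANOG -2.003, UTF1 -1.988). It also did in NP-IWP2 (-1.799, -2.902, -2.365, -1.884). In passaged the rates were -2.139, -1.901, -1.19 and -2.362. Rates other than those of POU5F1 and passaged PRDM14 are bounds at 3 counts. Passaged PRDM14 went from 50 to 4 counts (ratio 0.0717, 0.0188 to 0.195), an interval that held the POU5F1 ratio of 0.0515. The place of POU5F1 in passaged was therefore not settled. In NP-ctrl and NP-IWP2 the counting intervals of NANOG and UTF1 overlapped that of POU5F1. NANOG did not pass with limma (adjusted p = 0.0745), without day 3 NANOG, DPPA2 and PRDM14 did not pass in edgeR, and without day 10 ZFP42, LIN28A and LIN28B did not pass and UTF1 did.

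**Figure D3:**
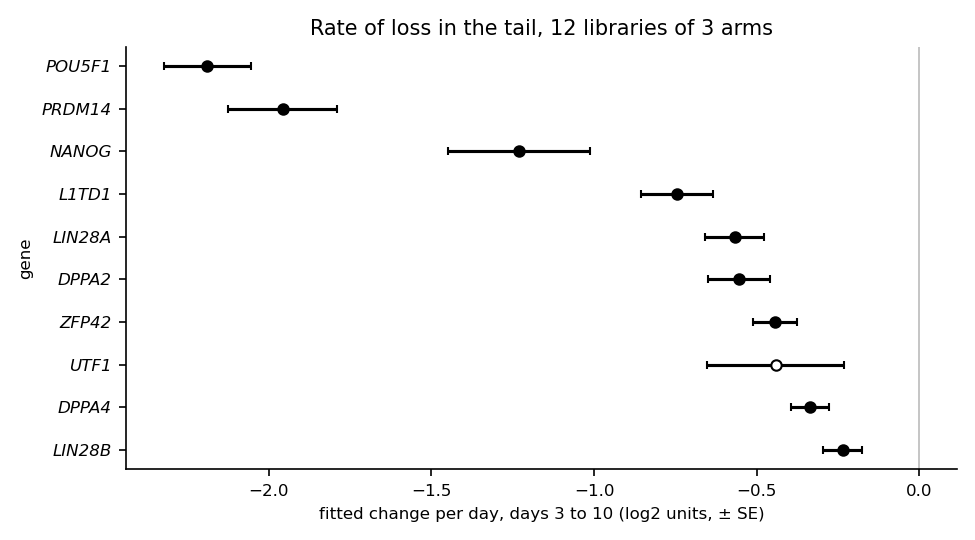
Slope over days 3 to 10 in log2 units per day (horizontal axis) of the 10 members from the edgeR fit of 12 libraries with a slope common to the 3 arms, with bars of 1 SE. Filled points passed an adjusted p under 0.05 and the open point, UTF1, did not. POU5F1 and PRDM14 are near 2 log2 units per day below 0 and LIN28B is nearest to 0.

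Arms were compared within each day first. In passaged against NP-ctrl, no member was at least 2-fold lower on log2(FPKM + 1) on day 3 (3.48% of all genes were), against 3 of them on day 5 (4.42%), 2 on day 7 (8.29%) and as many as 6 on day 10 (11.7%). At no time was a member at least 2-fold higher. The median member difference on day 10 was -1.31 and the median over all 21206 genes was -0.09. On day 10, NP-IWP2 had 1 member, UTF1, at least 2-fold below NP-ctrl (5.64% of all genes), and passaged had 4 members at least 2-fold below NP-IWP2 (7.01%). The comparisons share libraries, so their counts are not separate evidence.

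On day 10 passaged L1TD1 had 9 counts against 161 and a ratio of FPKM to NP-ctrl of 0.0494 (0.0222 to 0.0962), or 20.2-fold lower. DPPA4 was 8.96-fold lower (ratio 0.112, 0.0921 to 0.134), with an interval that overlapped that of L1TD1, and ZFP42 was 7.65-fold, LIN28B 4.16-fold and LIN28A 2.59-fold lower. On the log2(FPKM + 1) scale the order was another, with DPPA4 at -2.59, ZFP42 at -2.02 and L1TD1 at -1.84. UTF1 was at least 9.42-fold lower (0 against 25 counts) and DPPA2 at least 2.64-fold (0 against 7 counts), bounds that give neither a place in this order. POU5F1, NANOG and PRDM14 had too few counts in all arms on day 10 for a ratio.

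The earlier days showed which members had parted before. On day 3 the passaged to NP-ctrl ratio was 0.585 (0.553 to 0.618) for POU5F1, 0.333 (0.170 to 0.611) for NANOG, 0.434 (0.307 to 0.604) for PRDM14 and 0.651 for DPPA4, whereas it was 1.97 for LIN28A, 1.72 for UTF1 and 1.18 for ZFP42. Of the 10 members, 7 had an interval below 1 and 3 above 1 on that day by FPKM, where 22.0% of all 21206 genes were below and 30.8% above. By TPM the direction turned for L1TD1 (10.97% of day 0 in passaged, 10.08% in NP-ctrl) and LIN28B (106.4% and 98.16%). POU5F1, NANOG and PRDM14 were thus lower in the passaged culture 1 day after replating, and LIN28A was higher. L1TD1 moved steadily apart, with ratios of 0.894, 0.314, 0.192 and 0.0494 on days 3, 5, 7 and 10, and ZFP42 did so with 1.18, 0.350, 0.244 and 0.131. DPPA4 was nearly level on day 5 (0.989) and at 0.497 and 0.112 afterwards. LIN28B had ratios of 0.891, 1.32, 0.643 and 0.240.

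Between NP-IWP2 and NP-ctrl the direction changed with the day for some members. L1TD1 was higher in NP-IWP2 on day 3 (ratio 1.68) and day 5 (1.59) and lower on day 7 (0.703) and day 10 (0.438). NANOG on day 3 was also higher with IWP2 (ratio 1.83, 1.26 to 2.67, 76 against 50 counts), as was PRDM14 (1.41, 1.11 to 1.78). On day 10 the ratios were 0.626 for DPPA4, 0.488 for ZFP42, 0.804 for LIN28A and 1.05 (0.973 to 1.14) for LIN28B. UTF1, with 3 against 25 counts, had a ratio of 0.102 (0.0197 to 0.334) on day 10. Of DPPA4, ZFP42, LIN28A and LIN28B, LIN28B was the member whose day 10 level did not differ between these arms beyond counting error. Passaged against NP-IWP2 on day 10 gave 0.178 for DPPA4, 0.268 for ZFP42, 0.479 for LIN28A, 0.229 for LIN28B and 0.113 for L1TD1.

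**Figure D4:**
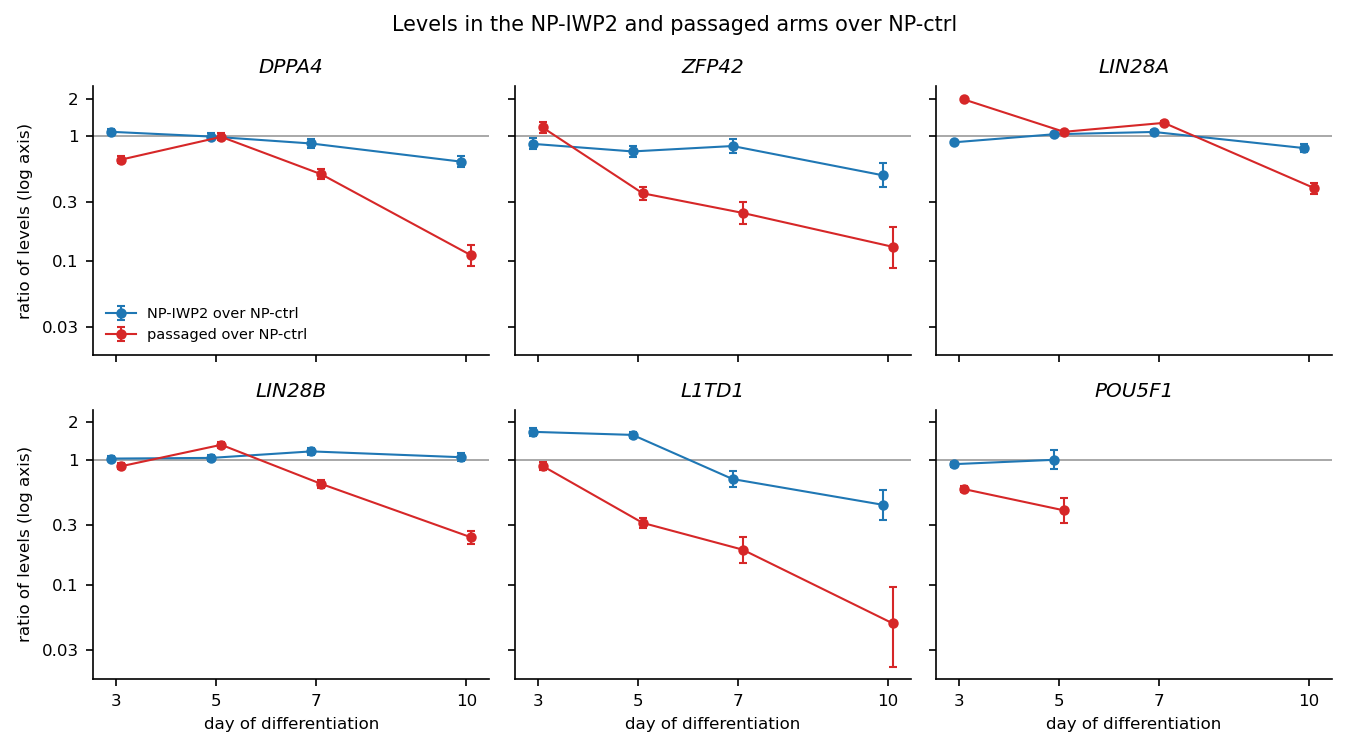
Ratio of FPKM in NP-IWP2 or passaged to that in NP-ctrl (log axis) on days 3, 5, 7 and 10 for DPPA4, ZFP42, LIN28A, LIN28B, L1TD1 and, on days 3 and 5, POU5F1, with exact 95% intervals for counting error. Passaged L1TD1 goes from 0.894 to 0.0494 and passaged LIN28A from 1.97 to 0.386.

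With days as repeats, the edgeR fit of the 12 libraries with day as a factor called L1TD1 lower in passaged than in NP-ctrl (log2 difference -1.89, SE 0.448, adjusted p = 0.0384). This was 1 of 10 members, where 2.76% of all genes were called lower. By FPKM L1TD1 was lower on 4 of 4 days. By TPM it was not lower on day 3, at 10.97% of day 0 in passaged and 10.08% in NP-ctrl. The next members were ZFP42 at -1.39 (adjusted p = 0.0707), POU5F1 at -1.24 (0.084), DPPA2 at -1.89 (0.0935) and DPPA4 at -1.04 (0.136), all by edgeR. These 5 genes were below an unadjusted p of 0.05 in edgeR, as were 19.2% of all genes in either direction, and DESeq2 called all 5 lower, as it did 5.81% of all genes. LIN28A had a mean difference of 0.14 (adjusted p = 0.867, edgeR), from days of opposite direction. The L1TD1 call was lost with limma (log2 difference -1.35, adjusted p = 0.0874) and in edgeR without day 5 (adjusted p = 0.135), day 7 (0.264) or day 10 (0.111), or with the 2 arms alone (0.206). Between NP-IWP2 and NP-ctrl, edgeR called 0 members, with 0 at an unadjusted p under 0.05 (4.76% of all genes), 0 by DESeq2 (0.099% of all genes lower) and 0 by limma, where 0.0189% of all genes were called. Between passaged and NP-IWP2, edgeR called 0 members, with 4 at an unadjusted p under 0.05 (12.9% of all genes), 1 lower by DESeq2 (L1TD1, with 2.49% of all genes) and 0 by limma, where 1.33% of all genes were called.

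A difference in slope between arms was not called for any member by edgeR. In passaged against NP-ctrl 0.16% of all genes were called, and DPPA4 (-0.36 log2 units per day, adjusted p = 0.156, edgeR) and ZFP42 (-0.38, adjusted p = 0.171, edgeR) came closest. The slope differences there were negative for 10 members by edgeR, 9 by DESeq2 and 6 by limma. The median over all genes was -0.00884 by edgeR, and the share of all genes below 0 was not counted. Those of POU5F1, NANOG, DPPA2, UTF1 and PRDM14 include libraries at 0 counts. By edgeR, 5 members were at an unadjusted p under 0.05 (15.6% of all genes in either direction). DESeq2 called 2 lower (DPPA4 and ZFP42), with 3.03% of all genes, and limma called 0. In NP-IWP2 against NP-ctrl 0.0% of all genes and 0 members were called, with 0 members at an unadjusted p under 0.05 (5.68% of all genes), 0 by DESeq2 (0.00943% lower) and 0 by limma. In passaged against NP-IWP2 0.00472% of all genes and 0 members were called, with 3 members at an unadjusted p under 0.05 (7.59% of all genes), 0 by DESeq2 (0.792% lower) and 0 by limma.

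Markers of several other cell types parted between the arms. The summed FPKM of 10 endoderm and liver markers on day 10 was 4391.57 for NP-ctrl, 1332.43 for the IWP2 arm and 92.67 after passaging, and that of 8 fibroblast and epicardial markers was 4068.0, 1158.14 and 89.45. The sum of 8 cardiomyocyte markers ran the other way, at 483.15, 1478.57 and 3685.26. The sum of 7 endothelial and blood markers was closer between arms on day 10, at 95.82, 105.26 and 120.05. Of these, 4 passed the filter and 0 were called between arms by edgeR. The sum of 8 neural markers was 44.23, 56.38 and 102.02. By edgeR, 5 of 10 endoderm and liver markers and 5 of 8 fibroblast and epicardial markers were lower in passaged than in NP-ctrl, as were 2.76% of all genes. In the same test 2 of 8 cardiomyocyte markers were higher, where 1.64% of all genes were called higher. Among 12 primordial germ cell markers, whose cells also express several members, DND1 was listed at 0 in all 15 libraries and NANOS3, DAZL and DDX4 did not exceed 0.91, 0.5 and 0.12 FPKM. The summed FPKM of this list was 78.95 on day 0 and 29.9, 13.42 and 8.57 on day 10 in the arm order used above. It included TFAP2C (-3.25 from day 0 to day 10 in log2(FPKM + 1)), KIT (-2.72), SOX15 (-2.33) and PDPN (-2.05). Of the 12, 7 passed the filter, and 4 of these 7 fell in slope by edgeR, where 17.1% of all genes fell. The germ cell regulators SOX17, also an endoderm gene, and PRDM1 went the other way, at 0.94 and 0.59 above day 0 on day 10. PRDM1 reached 16.4 FPKM (1690 counts) in passaged on day 5, when NP-ctrl had 1.25 and NP-IWP2 had 0.92, and SOX17 was at 0 counts on days 0 and 1 and at no more than 1.91 FPKM on day 10. The passaged day 10 library also had the highest mitochondrial share. The part of cell composition in the member differences was not tested. For mitochondrial reads, the edgeR tests were repeated without mitochondrial genes. The L1TD1 difference of passaged from NP-ctrl was then -1.88 (adjusted p = 0.0381, edgeR), against -1.89 with them. Ratios between single libraries were not recomputed in that way.

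The genes of these lists that differed most between day 0 and day 10 were, for endoderm and liver, APOA1 (7.05 higher in log2(FPKM + 1)), AFP (6.77), GATA4 (6.05) and APOA2 (4.93), and for fibroblasts and epicardium COL3A1 (8.79), LUM (6.12), COL1A1 (4.97) and PDGFRA (3.84). For cardiomyocytes they were MYL7 (9.12), MYH6 (8.57), NKX2-5 (6.30) and TNNI1 (6.29), and for endothelium and blood KDR (2.46). For neural markers they were SOX3 at -4.30, TUBB3 at -3.05, ZIC1 at -2.95 and NES at -0.64. Of 8 neural markers, 4 passed the filter, and SOX3 was higher in passaged than in NP-ctrl (log2 difference 2.46, adjusted p = 0.0447, edgeR).

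**Figure D5:**
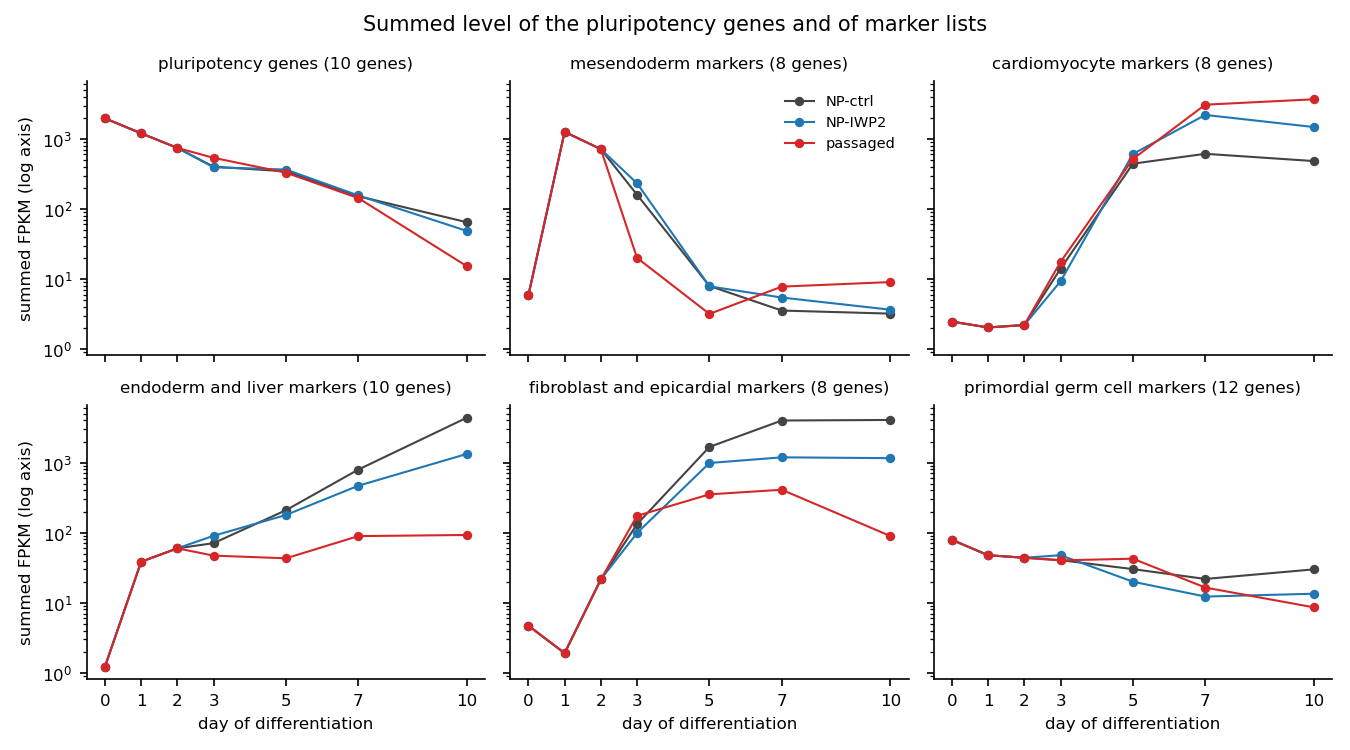
Summed FPKM of the members and of marker lists (log axis) against day for the shared libraries and the 3 arms. The sum of the members goes from 1969.45 on day 0 to 64.61, 48.47 and 15.19 on day 10 in the NP-ctrl, NP-IWP2 and passaged libraries, and the endoderm, fibroblast and cardiomyocyte sums part between arms.

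The early loss coincided with the appearance of mesendoderm genes. The summed FPKM of 8 mesendoderm markers was 5.88 on day 0, reached 1261.12 on day 1 and stood at 715.99 on day 2, while the sum of the members went from 1969.45 to 1203.04 and 744.29. On day 3 the mesendoderm sum was 159.99 for NP-ctrl, 232.71 for the IWP2 arm and 20.02 after passaging. The mesendoderm genes GSC, CDX2, TBXT and EOMES differed on day 10 from day 0 by -1.18, 0.51, -0.24 and -0.21 in log2(FPKM + 1). The passaged library had the lowest mesendoderm sum of the 3 day 3 libraries. By FPKM it also had the lowest POU5F1, NANOG, PRDM14, DPPA2, DPPA4, LIN28B and L1TD1, whereas its UTF1, ZFP42 and LIN28A were the highest. By TPM its L1TD1 and LIN28B were not the lowest. L1TD1 was then at 10.97% of day 0 in passaged and 10.08% in NP-ctrl, and LIN28B at 106.4% and 98.16%. The summed FPKM of the members was also highest in the passaged library, at 537.52 against 401.69 (NP-ctrl) and 394.3 (NP-IWP2), with LIN28A at 382.28 FPKM.

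Other genes of the primed state moved in both directions at first. Of 32 such genes, 11 were at least 2-fold lower and 5 at least 2-fold higher on day 1, and 17 were lower and 5 higher on day 2, whereas no member was higher. Of all genes, 3.48% and 5.17% were at least 2-fold lower and 3.26% and 6.57% at least 2-fold higher on those days. On day 10, 31 of 32 were at least 2-fold lower in each arm, as were 12.9% (NP-ctrl), 14.6% (NP-IWP2) and 15.4% (passaged) of all genes. The slope over days 3 to 10 fell for 23 of 32 by edgeR, where 17.1% of all genes fell. By the rule of largest change to day 10, the named genes are ESRG, a long noncoding RNA of hESCs (-8.46 in log2(FPKM + 1)), the transcription factor ZSCAN10 (-6.95), the secreted WNT modulator SFRP2 (-6.74) and the DNA methyltransferase DNMT3B (-6.32). SOX2, the partner of POU5F1 in hESCs, was at 97.13 FPKM on day 0 and at 0.51, 0.65 and 41.56 FPKM in the NP-ctrl, NP-IWP2 and passaged libraries on day 5. SOX2 was higher in passaged than in NP-ctrl over days 3 to 10 (log2 difference 5.92, SE 1.01, adjusted p = 0.00945, edgeR), whereas L1TD1 was called lower.

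Of 16 genes of the naive state, 10 passed the filter, and the naive markers KLF17, DPPA5 and DNMT3L stayed under 1 FPKM in all libraries. TBX3, also a gene of early mesoderm and heart, was the largest mover of this list, 3.26 higher on day 10 in log2(FPKM + 1). Pseudogenes and near copies of members matter because reads can be shared with their parent. Of 21 names searched, 17 were among the genes counted and 6 passed the filter. On day 0, 10 of the 17 had at most 3 counts. POU5F1P3 had 63.24 FPKM on day 0 and NANOGP8 had 23.59, and both were lower on day 10, by -5.51 and -4.43 in log2(FPKM + 1), as was POU5F1P4 (-3.51). YY1, the relative of ZFP42, differed from day 0 by -0.10. NANOGP8 levels followed NANOG with r = 0.990 over the 15 libraries, so part of either count could belong to the other.

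The let-7 pathway was examined for its link to the LIN28 proteins. Of 10 genes of let-7 precursor processing, the slope over days 3 to 10 fell for 4 and rose for 1 by edgeR, where 17.1% of all genes fell and 15.9% rose. TRIM71, an RNA-binding ubiquitin ligase that is also on the lists of let-7 targets and primed genes, changed most, from 77.24 FPKM on day 0 to 10.28, 12.25 and 9.4 on day 10 (-2.76 in log2(FPKM + 1)). KHSRP (-1.34) and the pre-miRNA exporter XPO5 (-1.19) were also lower, and TUT4, the uridylyltransferase recruited by LIN28A, was higher (1.06). Of 16 listed let-7 targets, 6 fell and 1 rose in slope by edgeR against the same shares of all genes, and 11 of the 15 searched held the seed match in the 3′ UTR. HMGA1 (926.2 FPKM on day 0, 91.87, 60.94 and 86.56 on day 10) had the largest change, -3.54, followed by MYC (-3.39), TRIM71 and CDC25A (-2.45). HMGA2, with 4 seed matches, had 19.48 FPKM on day 0 and 24.45, 59.9 and 15.28 on day 10. TRIM71 and HMGA1 were lower on day 10 than on day 0 in all arms, as LIN28A was. Of 5 host genes of let-7 miRNAs, 3 passed the filter, and MIR100HG rose (1.02 log2 units per day, adjusted p = 0.00101, edgeR) while HUWE1 differed from day 0 by -0.30 in log2(FPKM + 1).

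Likeness in time was measured as Pearson's r of log2(FPKM + 1) over the 15 libraries, which share their day 0 to 2 culture and are not independent. Among the members, DPPA2 and PRDM14 (r = 0.971), ZFP42 and L1TD1 (0.964) and NANOG and UTF1 (0.956) were most alike, and NANOG and LIN28B least (0.351). The genes outside the list nearest to the mean of the members were DNMT3B (0.981), GRAMD1A (0.975), SCNN1A (0.974), TKT (0.969) and LYAR (0.969). Nearest to POU5F1 were HTR7 (0.986), ZSCAN10 (0.986), HSP90AB1 (0.979), PMAIP1 (0.979) and EPHX3 (0.976), and nearest to NANOG were LCK (0.997), NANOGP8 (0.990), SOX14 (0.985), NFE2L3 (0.978) and SLCO4A1 (0.975). For LIN28B the values were lower, led by ARL6IP6 and CDC7 (0.923 each), with HNRNPA3, SLC44A1 and CENPJ next.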

How the data were processed

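Bulk RNA of H1 cultures was measured in 15 libraries. Per the submitters' processing notes, reads were trimmed with cutadapt 1.9.1, aligned with HISAT2 2.0.1 to hg38 and counted per gene with HTSeq 0.6.1, and DESeq2 was named. The labels name a kit for long-read libraries, the tools are for short reads, and strand use is not given in the sources used here. The authors deposited raw counts for 60605 genes and FPKM values scaled to exonic length and library total. FPKM recomputed from counts differed by at most 0.005.

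Ratios of single libraries carry exact 95% intervals (Clopper-Pearson, on counts), for counting error only. The floor was 3 counts per library. Differences used log2(FPKM + 1), and genes with FPKM of at least 1 in at least 1 library were kept. Arms and slopes were tested with edgeR 4.0.16 in R 4.3.3 (TMM scaling, quasi-likelihood test, two-sided, Benjamini-Hochberg over 21206 genes) on the 12 libraries of days 3 to 10, with day or arm as covariate. SEs were taken from the size of the effect and its test statistic. The script was tested on simulated data. DESeq2 1.42.0 and limma 3.58.1 were alternatives. The p-values rest on variation across days of a single differentiation.

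All members are named, and of each companion list up to 4 genes of at least 10 FPKM with the largest difference between day 0 and the mean of day 10, plus the 5 protein-coding genes nearest to the mean of the members, POU5F1, NANOG and LIN28B. Values given for other genes (SOX2, SOX3, MIR100HG, HMGA2, SOX17, PRDM1 and genes near 0) were chosen after their values were seen. The members and the companion lists were chosen with earlier results of these data known. Sequences are from RefSeq (GRCh38.p14) and GENCODE release 44.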

Additional observations from a re-analysis of the deposited data

Results flagged for a closer look

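In 6 steps between sampled days the arms moved in opposite directions beyond counting error. Each value is a ratio of single libraries, and the difference between arms was not tested.

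ZFP42 from day 3 to day 5 had a ratio of 1.24 in NP-ctrl and 0.370 in passaged. LIN28A from day 2 to day 3 had a ratio of 1.19 in passaged, 0.606 in NP-ctrl and 0.542 with IWP2, and from day 3 to day 5 the order was turned, with 1.16 (1.13 to 1.18) for NP-ctrl, 1.34 for NP-IWP2 and 0.637 for passaged. LIN28B from day 3 to day 5 had a ratio of 1.40 in passaged and 0.941 in NP-ctrl, the latter close to no change. L1TD1 from day 2 to day 3 had a ratio of 1.12 in NP-IWP2, 0.666 in NP-ctrl and 0.596 in passaged, and from day 3 to day 5 it had 1.36 for NP-ctrl, 1.28 for NP-IWP2 and 0.476 for passaged. The direction depended on scaling for 2 of these steps. The NP-IWP2 step of L1TD1 from day 2 to day 3 was from 14.3% to 14.1% of day 0 with TMM-scaled libraries, and the NP-ctrl step of LIN28B from day 3 to day 5 was from 98.2% to 108% by TPM. The passaged day 3 library, which enters each step with a passaged value, was the one with the lowest mitochondrial share (1.53%).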

How the results depend on the processing

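The number of members called lower in passaged than in NP-ctrl (1 in edgeR) was 5 with DESeq2, 5 with no filter on low values (DPPA2, DPPA4, L1TD1, POU5F1 and ZFP42 both times), 0 with limma, 0 with the 2 arms alone and 0 to 2 when a day was left out (2 without day 3, L1TD1 and ZFP42, and 0 without day 5, 7 or 10). For passaged against NP-IWP2 (0 in edgeR) it was 1 with DESeq2, 3 with no filter, 1 with the 2 arms alone and 0 to 2 when a day was left out (2 without day 3). For the slope difference of passaged from NP-ctrl (0 in edgeR) it was 2 with DESeq2 and 0 to 2 when a day was left out (2 without day 3, DPPA4 and LIN28B). NP-IWP2 against NP-ctrl gave 0 under each alternative. The L1TD1 difference was -1.35 to -1.98 over the alternatives in which its call was lost, with adjusted p from 0.0874 (limma) to 0.264 (edgeR without day 7). Falling slopes numbered 6 to 9 when a day was left out, and NANOG, DPPA2 and PRDM14 did not pass without day 3. The UTF1 slope turned to 0.36 (adjusted p = 0.406, edgeR) without day 3 and was -1.12 (adjusted p = 0.0377, edgeR) without day 10. A 4-fold in place of a 2-fold limit left 2 members lower on day 1 and 4 on day 2. The causes were not tested, beyond the fewer libraries or the stricter limit of some alternatives. Leaving mitochondrial genes out of the counts, an alternative chosen after seeing the data, changed no count of members. Among the recomputed values, 81 counts and 111 single values kept their call or stayed close, 16 counts and 12 single values moved, and 12 single values lost and 1 gained a call.

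Scaling shifted all genes: the median gene in NP-ctrl on day 10 lay 0.18 above day 0 in log2(FPKM + 1), 0.48 by TPM and 0.06 with TMM-scaled libraries. The tests of arms pair the arms by day, with day as a factor, and no replicate numbers allow a further pairing, since each combination of arm and day has 1 library. With no repeat differentiation, differences between single libraries cannot be told apart from variation between cultures, and after day 5 NANOG, PRDM14 and POU5F1 had at most 6 counts in any library, UTF1 at most 7 outside NP-ctrl day 10 and DPPA2 at most 8.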
